A study of Drosophila melanogaster with 3 samples.

Results

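RNA footprints of the exon junction complex were compared between a purification through Btz and a purification through Y14 that had received the same nuclease treatment. All peaks of the Btz/eIF4AIII list (36393) and of the eIF4AIII/Y14 list (34945) were taken, 71338 of the 87432 peaks in the series. Where peaks of the lists overlapped on the same strand by 1 bp or more and each met no further partner, they were treated as a one-to-one pair, which gave 12642 pairs. The Btz/eIF4AIII group was S2 cells in which tagged Btz was captured first and endogenous eIF4AIII second. The eIF4AIII/Y14 group was S2 cells in which tagged eIF4AIII was captured first and endogenous Y14 second. In both groups the tagged protein was expressed from a copper-inducible construct, cycloheximide (100 µg/ml) was present for the last 2 h after 72 h of growth, and the RNA was trimmed with 0.5 units of micrococcal nuclease (MNase) for 15 min between the captures. The remaining purification, Y14/eIF4AIII (tagged Y14, then eIF4AIII), had 0.3 units of MNase and is used below only as a separate readout. Each purification had 1 library from 1 cell line and no control purification was analysed here, so the values are descriptions of these libraries and carry no p-value.

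The exon junction complex (EJC) is set down on mRNA by the spliceosome a short distance upstream of the exon-exon junction. eIF4AIII, an RNA helicase of the DEAD-box family, clamps the RNA in a way that does not depend on its sequence, and Y14 with its partner Mago locks that clamp. Btz (Barentsz; its mammalian counterpart is MLN51/CASC3) binds eIF4AIII and RNA as a further core protein. In the fly the complex is best known for its part in the localisation of oskar mRNA in the oocyte, and S2 cells are an established line of hemocyte-like character. MNase digests RNA that no protein covers, so a peak is read here as a stretch of RNA that stayed protected. Whether each peak border is an edge of protection was not tested. Cycloheximide stops ribosomes, which otherwise strip the complex from mRNA during translation.

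Btz/eIF4AIII peaks were wider than eIF4AIII/Y14 peaks at the same MNase dose. The median width was 53 nt (quartiles 34 and 76) in Btz/eIF4AIII and 31 nt (22 and 40) in eIF4AIII/Y14. The score deposited with each peak behaves as a mean read depth per base, since score times width was a whole number for 100% of the peaks (tolerance 0.001). Its median was 95.3 in Btz/eIF4AIII and 52 in eIF4AIII/Y14. These depths carry no correction for library size, with read totals not given in the sources used here, so depth is used as a rank within its own list. No list held neighbouring peaks closer than 25 nt on 1 strand. Coordinates are 1-based and, judged by sequence names, follow Drosophila release 5. The annotation at hand is of release 6, so no peak was assigned to a gene, an exon or an annotated junction. Intervals on shares and medians are 95% binomial intervals; they cover counting error only and treat peaks as independent, and no molecular identifier separates PCR copies.

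Fewer than every second peak of either list met the other. An eIF4AIII/Y14 peak overlapped 13787 Btz/eIF4AIII peaks, 37.9% of that list, and a Btz/eIF4AIII peak overlapped 14609 eIF4AIII/Y14 peaks, 41.8%. On the opposite strand the same shares were 0.698% and 0.738%. The overlapping peaks fell into 13605 groups, of which 92.9% held 1 peak of each list. The median pair overlapped by 30 bp. At the edge of the rule, 159 pairs shared exactly 1 bp, and 440 unmatched Btz/eIF4AIII and 511 unmatched eIF4AIII/Y14 peaks ended within 5 nt of the other list.

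Groups with several peaks were lopsided. One Btz/eIF4AIII peak spanned several eIF4AIII/Y14 peaks in 786 groups, and 1 eIF4AIII/Y14 peak spanned several Btz/eIF4AIII peaks in 127. The spanning Btz/eIF4AIII peaks had a median width of 155 nt and the eIF4AIII/Y14 peaks beneath them 36 nt. The most eIF4AIII/Y14 peaks under 1 Btz/eIF4AIII peak was 13. The stretches between the eIF4AIII/Y14 peaks beneath 1 Btz/eIF4AIII peak were 52 nt long at the median (quartiles 36 and 78), a length that the width of the spanning peak limits. Of these 926 stretches, 239 (25.8%) measured 50 to 75 nt. Among all eIF4AIII/Y14 gaps of up to 2000 nt the share was 13.4%, but no spanning peak limits those, so the shares are not directly comparable.

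Within pairs the Btz/eIF4AIII footprint enclosed its partner more often than the reverse. The eIF4AIII/Y14 peak lay inside the Btz/eIF4AIII peak, shared borders counted, in 7320 pairs (57.9%; 95% interval 57.0 to 58.8). The reverse held in 1738 pairs (13.7%, interval 13.2 to 14.4). This leaves out the 362 pairs (2.86%) with both borders identical, which the first share counts. Btz/eIF4AIII reached further on both sides in 3781 pairs (29.9%) and fell short on both in 467 (3.69%). Over pairs with no border in common the eIF4AIII/Y14 peak lay inside in 48.3%. Another 2117 pairs had the Btz/eIF4AIII peak shifted downstream and 1467 had it shifted upstream. Btz/eIF4AIII was the wider peak of the pair in 72.7% and eIF4AIII/Y14 in 23.8%, and widths were equal in 3.48%, with medians over pairs of 54 nt in Btz/eIF4AIII and 35 nt in eIF4AIII/Y14.

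The extra reach of Btz/eIF4AIII differed in shape between the 5′ and the 3′ side. Extension is given as Btz/eIF4AIII minus eIF4AIII/Y14, so a positive value means that the Btz/eIF4AIII peak reached further out. At the 3′ border it was frequent and short. Btz/eIF4AIII reached further there in 59.8% of pairs, the border was the same in 21.8% and eIF4AIII/Y14 reached further in 18.3%; the median was 3 nt (interval 3 to 4), with quartiles of 0 and 14 nt. At the 5′ border it was less frequent but longer. Btz/eIF4AIII reached further in 53.5%, the border was the same in 19.1% and eIF4AIII/Y14 reached further in 27.5%; the median was 2 nt (1 to 2), with quartiles of -1 and 27 nt. Mean extension was 13.5 nt at the 5′ border and 10.7 nt at the 3′ border. The median 5′ extension changed with the peaks kept: it was 5 nt without peaks under 15 nt, and 9 nt over the 4463 pairs of peaks above the median depth of their list.

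The long tail was the clearest contrast between the sides. Btz/eIF4AIII reached at least 20 nt further 5′ in 3899 pairs (30.8%) and at least 20 nt further 3′ in 2343 (18.5%). For 50 nt the shares were 12.2% on the 5′ and 7.63% on the 3′ side, and for 100 nt 2.77% and 2.02%. In the other direction eIF4AIII/Y14 reached at least 20 nt further 5′ in 8.99% of pairs and 3′ in 4.96%. For 50 nt these shares were 1.82% and 1.12%, and for 100 nt 0.111% and 0.0949%. Differences of at least 20 nt or 50 nt were thus more frequent at the 5′ border in either direction. The contrast between the sides was therefore not particular to the reach of Btz/eIF4AIII. Counted pair by pair over all pairs, the 5′ extension was the greater in 5946 (47.0%) and the 3′ extension in 6219 (49.2%), with a median difference (5′ minus 3′) of 0 nt. This balance depended on the pairs kept. Over pairs with no border in common the 5′ extension was the greater in 51.7% and the 3′ extension in 46.8%, with a median difference of 2 nt (interval 1 to 3). Over peaks above the median depth of their list the median difference was 4 nt (3 to 6).

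**Figure D1:**
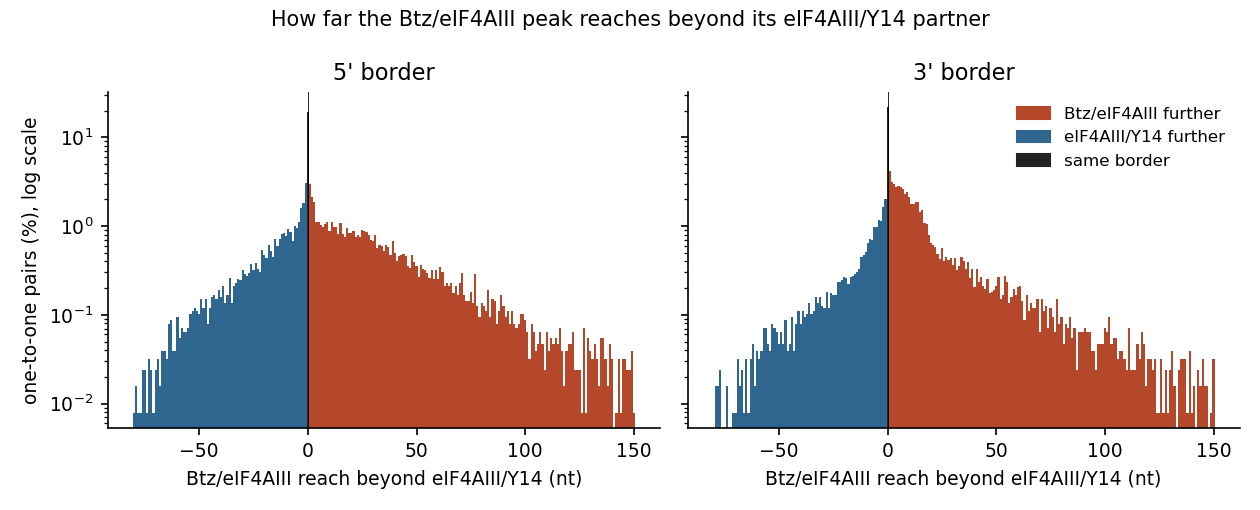
Share of the 12642 one-to-one pairs (log axis) at each distance in nt by which the Btz/eIF4AIII border lay outside the eIF4AIII/Y14 border, for 5′ borders on the left and 3′ borders on the right. The spike at 0 holds 19.1% of 5′ and 21.8% of 3′ borders, and to its right the 5′ panel falls slowly whereas the 3′ panel is steeper, with 30.8% and 18.5% of pairs at 20 nt or more.

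Which side was extended followed the width of the Btz/eIF4AIII peak. The sum of the extensions is the difference in width, so wide Btz/eIF4AIII peaks must extend somewhere, and only the division between the sides is informative. Among the 1962 pairs with a Btz/eIF4AIII peak of 100 nt or more, the median extension was 60 nt on the 5′ side (quartiles 15 and 88) and 11 nt on the 3′ side (0 and 62). The 5′ extension was the greater in 65.2% of them (interval 63.0 to 67.3). For Btz/eIF4AIII peaks of 75 to 99 nt the medians were 28 nt and 5 nt, and for those of 50 to 74 nt 12 nt and 3 nt. At 25 to 34 nt the division was the other way round. These Btz/eIF4AIII peaks stopped 3 nt short of the eIF4AIII/Y14 5′ border at the median (extension -3 nt) and passed its 3′ border by 2 nt, and the 3′ extension was the greater in 77.4% of these 1861 pairs (75.5 to 79.3).

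By the width of the eIF4AIII/Y14 peak, very narrow peaks stood apart. In the 1095 pairs with an eIF4AIII/Y14 peak under 15 nt, 92.2% had the 5′ border in common, and Btz/eIF4AIII extended 15 nt 3′ at the median. With eIF4AIII/Y14 peaks of 25 to 34 nt the 5′ border was shared in 10.8%, and the median extensions were 10 nt 5′ and 5 nt 3′. In contrast, shared 3′ borders were least frequent beside narrow eIF4AIII/Y14 peaks, at 11.3% under 15 nt and 10.4% at 15 to 24 nt, and reached 30.9% at 50 to 74 nt. Where the eIF4AIII/Y14 peak was 75 to 99 nt wide, Btz/eIF4AIII fell short on the 5′ side by 4 nt at the median (extension -4 nt) and ended at the same 3′ position (0 nt).

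**Figure D2:**
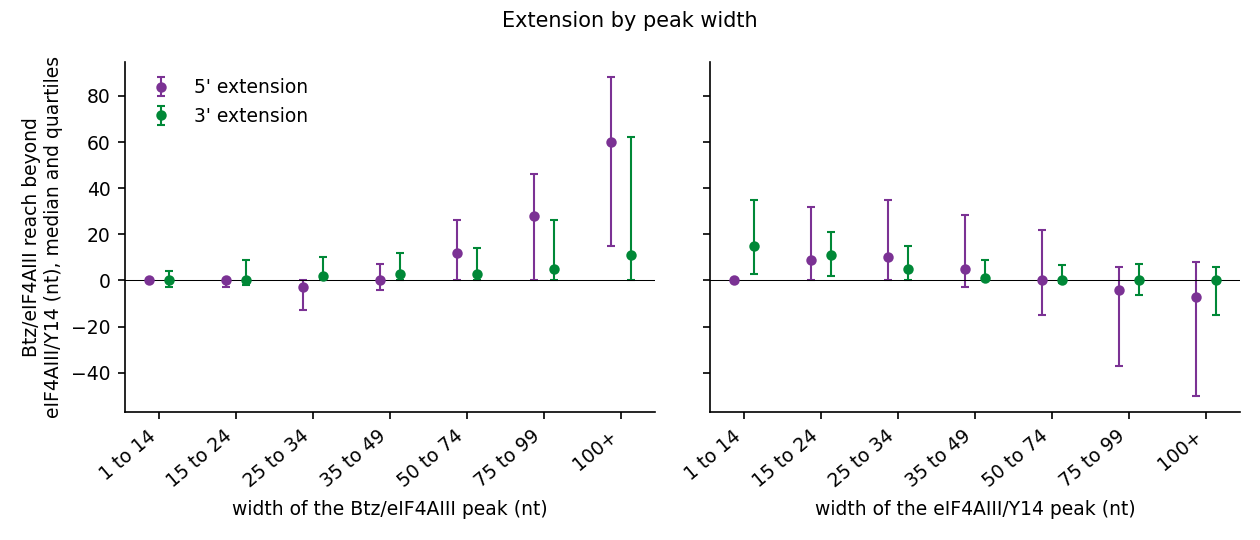
Extension of Btz/eIF4AIII beyond eIF4AIII/Y14 in nt (points, medians over pairs; bars, quartiles) at the 5′ and the 3′ border, by width class of the Btz/eIF4AIII peak on the left and of the eIF4AIII/Y14 peak on the right. On the left the 5′ medians climb from 12 nt at 50 to 74 nt to 60 nt in the widest class while the 3′ medians stay at 11 nt or less; on the right the 15 nt 3′ extension of eIF4AIII/Y14 peaks under 15 nt stands beside a 5′ median of 0 nt.

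Pairs with no border in common give the free edges of the footprints. There were 7832, 62.0% of all pairs, with median widths of 60 nt in Btz/eIF4AIII and 36 nt in eIF4AIII/Y14. Btz/eIF4AIII reached further 5′ in 67.0% of them and further 3′ in 75.3%. Over all of these pairs the median extension was 10 nt on the 5′ side (interval 9 to 11; quartiles -4 and 34) and 7 nt on the 3′ side (6 to 7; quartiles 1 and 16). Around the middle of the eIF4AIII/Y14 peak, Btz/eIF4AIII covered 50% or more of these pairs from 29 nt upstream to 25 nt downstream (positions -29 to 25), and eIF4AIII/Y14 from -18 to 17. Btz/eIF4AIII coverage was highest at 5 nt downstream of that middle, with 87.1% of pairs. At 50 nt it was 28.2% upstream and 16.8% downstream, whereas for eIF4AIII/Y14 it was 3.46% and 3.43%. The Btz/eIF4AIII footprint thus leaned upstream in its outer part, while the eIF4AIII/Y14 profile is symmetric because it was centred on itself.

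**Figure D3:**
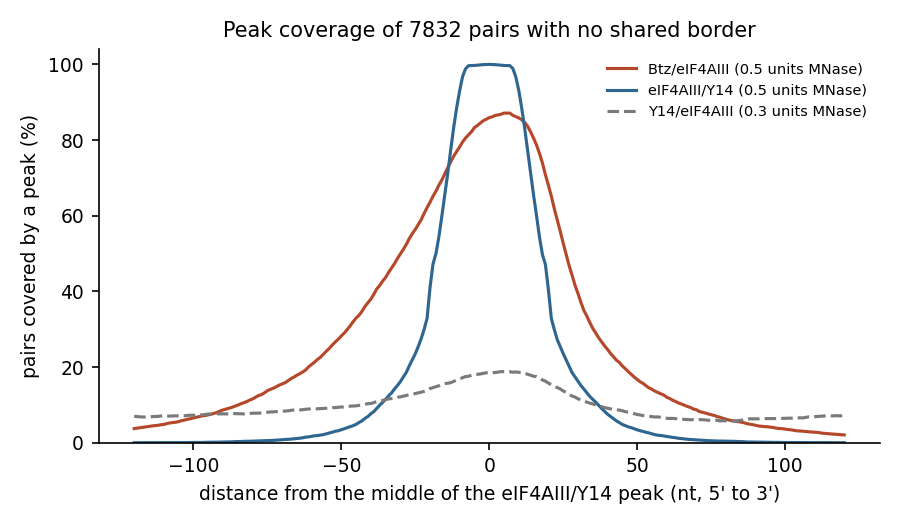
Percent of the 7832 pairs without a shared border that were covered at each distance in nt from the middle of the eIF4AIII/Y14 peak, 5′ to the left, by the Btz/eIF4AIII or eIF4AIII/Y14 peak of the pair and by any Y14/eIF4AIII peak. The Btz/eIF4AIII curve is broader on the left, with 28.2% at 50 nt upstream and 16.8% at 50 nt downstream, and the Y14/eIF4AIII curve peaks at 18.8%.

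The third purification offers a readout that had no part in making the pairs. Of the 3644 pairs that a Y14/eIF4AIII peak also overlapped, those with a 5′ border common to Btz/eIF4AIII and eIF4AIII/Y14 had the very same base as a Y14/eIF4AIII 5′ border in 389 of 705 cases (55.2%; 51.4 to 58.9). Where the lists disagreed, the Btz/eIF4AIII 5′ border recurred in 10.0% (8.94 to 11.1) and the eIF4AIII/Y14 one in 5.38% (4.59 to 6.25) of 2939 pairs. For 3′ borders the common ones recurred in 445 of 894 pairs (49.8%; 46.4 to 53.1). Those of Btz/eIF4AIII alone recurred in 15.9% (14.5 to 17.3) and those of eIF4AIII/Y14 alone in 4.73% (3.96 to 5.59) of 2750 pairs. Borders on which the lists met to the base were therefore also those found most often in the third list.

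Flanks covered by Btz/eIF4AIII alone were set against that list as well. Where Btz/eIF4AIII extended at least 20 nt 5′ and a Y14/eIF4AIII peak touched the pair (1260 pairs), Y14/eIF4AIII covered the middle of the extension in 46.4% (43.6 to 49.2), the middle of the common part in 62.1%, and the base as far outside the Btz/eIF4AIII border in 15.1%. On the 3′ side (806 pairs) the values were 54.6% (51.1 to 58.1), 66.3% and 14.5%. Flanks covered by eIF4AIII/Y14 alone gave 41.4% (36.2 to 46.7) on the 5′ side over 355 pairs and 42.9% (35.9 to 50.1) on the 3′ side over 198 pairs. Y14/eIF4AIII had less MNase, so how far it covers these flanks cannot be told apart from its nuclease dose.

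Stretches between neighbouring peaks that both lists gave with identical borders show where the shared edges lie. There were 1469 such gaps of up to 2000 nt, and 1211 had one-to-one pairs on either side. Upstream of the gap the 3′ border is shared by construction, and the free 5′ border of Btz/eIF4AIII lay 4 nt further out at the median (interval 2 to 6; quartiles -3 and 29), with Btz/eIF4AIII further in 57.6% (54.8 to 60.4). Downstream of the gap the 5′ border is shared, and the free 3′ border lay 12 nt further out (10 to 13; quartiles 1 and 30), with Btz/eIF4AIII further in 75.1% (72.5 to 77.5). The upstream peaks had median widths of 51 nt in Btz/eIF4AIII and 41 nt in eIF4AIII/Y14. The downstream peaks had 28 nt in Btz/eIF4AIII and 10 nt in eIF4AIII/Y14, and 24.9% of them in Btz/eIF4AIII and 66.1% in eIF4AIII/Y14 were under 15 nt. Added across the gap, the protected length was 84 nt in Btz/eIF4AIII and 55 nt in eIF4AIII/Y14 at the median. The larger relative gain thus lay on the downstream side. The value depended on which peaks were kept. Without peaks under 15 nt, 343 gaps remained. Their free 3′ extension was 4 nt (1 to 6) and their free 5′ extension 2 nt (0 to 8), with intervals that overlap. With peaks above the median depth of their list alone the free 3′ extension was 19 nt, with a free 5′ extension of 13 nt.

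Among shared gaps of the full lists, peaks under 15 nt included, the free 3′ extension downstream had the larger median in each of 3 length classes. For the 820 shared gaps of 50 to 75 nt, the length class of short fly introns, the free 5′ extension was 5.5 nt and the free 3′ extension 13 nt. For 290 gaps of 76 to 500 nt the values were 3 and 12 nt, and for 89 gaps of over 500 nt 2 and 7 nt (intervals 0 to 11 and 3 to 11). Median depth percentiles, counted so that 100 is the deepest peak of a list, were 65.5 upstream and 60.0 downstream in Btz/eIF4AIII and 78.9 upstream and 45.3 downstream in eIF4AIII/Y14. The upstream peak was the deeper in 711 of 1211 gaps in Btz/eIF4AIII and in 931 of 1211 in eIF4AIII/Y14.

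Gaps taken from Y14/eIF4AIII alone, in whose choice neither compared list took part, gave the same sides for the shared borders at 50 to 75 nt, but not a longer 3′ extension throughout. Of 466 pairs just upstream of a Y14/eIF4AIII gap of 50 to 75 nt, 42.5% (38.0 to 47.1) shared their 3′ border and 12.9% (9.97 to 16.3) their 5′ border. Of 373 pairs just downstream, 19.0% (15.2 to 23.4) shared their 3′ border and 45.3% (40.2 to 50.5) their 5′ border. Over all pairs these shares were 21.8% and 19.1%. The free extension was 4 nt 5′ (1 to 8) upstream of the gap and 5 nt 3′ (2 to 7) downstream. For gaps of 76 to 500 nt these extensions were 3 nt (1 to 6) and 4 nt (2 to 5), and for gaps of over 500 nt 5 nt (3 to 9) and 3 nt (2 to 5). Beside Y14/eIF4AIII gaps of 76 to 500 nt the 3′ border was shared in 20.2% upstream and 22.5% downstream, close to the value for all pairs.

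Depth within a list was almost unrelated between partners. Across the 12642 pairs the Spearman coefficient of depth was 0.01, and that of depth times width 0.07, as a description over peaks of 1 library each that share genome and gene expression. Restricted to partners that were both 35 to 49 nt wide it was 0.13 over 886 pairs, and where both borders were identical 0.20 over 362. Each list was divided by depth into 4 classes of about equal size, class 1 the shallowest. The deepest class of both lists held 1377 pairs and the shallowest class of both 481. In all, the deepest class held 3724 pairs by Btz/eIF4AIII depth and 4460 by eIF4AIII/Y14 depth, and the shallowest 2702 and 2371. The counts in combined classes follow in part from these totals. Pairs deep in eIF4AIII/Y14 but in the shallowest class of Btz/eIF4AIII numbered 1019, and those deep in Btz/eIF4AIII but shallowest in eIF4AIII/Y14 636. Depth percentiles lay within 10 points of each other in 20.1% of pairs. They differed by over 50 points in favour of Btz/eIF4AIII in 1373 pairs and in favour of eIF4AIII/Y14 in 2058. The median percentile over all pairs was 54.9 in Btz/eIF4AIII and 60.3 in eIF4AIII/Y14.

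**Figure D4:**
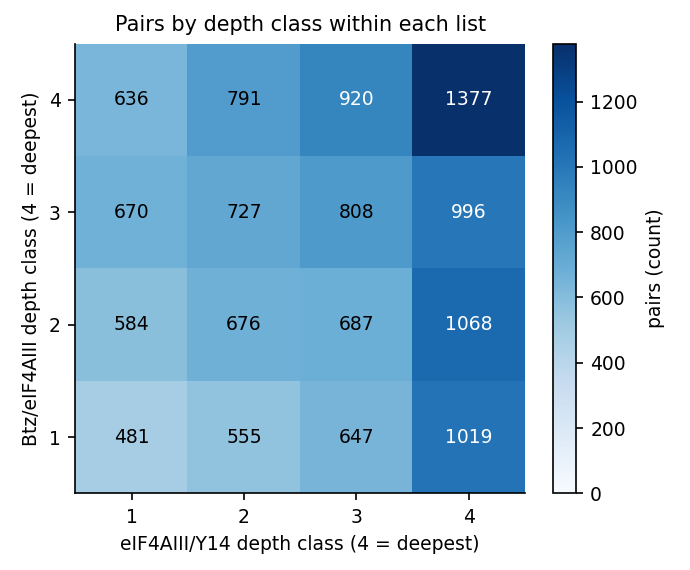
Number of one-to-one pairs in each combination of depth classes, with those of Btz/eIF4AIII on the vertical and those of eIF4AIII/Y14 on the horizontal axis (4 is the deepest class of the full list). The top right cell holds the most pairs, 1377, where the fullest row (3724 pairs) and the fullest column (4460 pairs) cross. The column of deep eIF4AIII/Y14 peaks still holds 1019 pairs in the shallowest Btz/eIF4AIII class.

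Extension moved with depth rank, together with width. From the shallowest to the deepest depth class of Btz/eIF4AIII the median 5′ extension was 0, 1, 10 and 4 nt and the median 3′ extension 1, 3, 6 and 4 nt, while the median Btz/eIF4AIII width was 36, 49, 66 and 62 nt. Within Btz/eIF4AIII peaks of 50 to 74 nt the 5′ extension was 12, 13, 12 and 11 nt over the same depth classes, and the 3′ extension 2, 4, 3 and 3 nt. In this width class, then, the medians differed by no more than 2 nt between them. At 75 to 99 nt the 5′ extension was 28, 31.5, 28 and 27 nt. At 25 to 34 nt it was -5, -3, -1 and -1 nt, and the share with the same 5′ border was 14.4%, 20.6%, 30.0% and 33.8%, so there the 5′ border did go with depth. The order of the classes also depended on the measure of depth: ranked by depth times width, which contains the width itself, the 5′ extension was 0, 0, 3 and 18 nt from the lowest class to the highest, without the lower value in the highest class.

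With eIF4AIII/Y14 depth, the shares of common borders over all pairs moved in opposite directions on the 5′ and the 3′ side. From its shallowest to its deepest class the 3′ extension of Btz/eIF4AIII was 8, 6, 4 and 1 nt, and the share of pairs with the same 3′ border was 11.7%, 15.6%, 21.3% and 31.4%. The 5′ extension was 3, 2, 2 and 1 nt, and the same 5′ border was found in 23.6%, 22.7%, 18.4% and 14.9%. Within eIF4AIII/Y14 peaks of 35 to 49 nt the 5′ extension was 7, 10, 5 and 2 nt and the 3′ extension 6, 3, 1 and 0 nt, with shared 3′ borders in 10.7%, 17.2%, 28.7% and 36.7%. At 25 to 34 nt the 5′ extension was 13, 14, 12 and 5 nt and the 3′ extension 8, 7, 5 and 3 nt, so in these width classes both extensions were smallest beside the deepest eIF4AIII/Y14 peaks. The same 5′ border was found in 12.3%, 10.2%, 9.26% and 9.16% at 35 to 49 nt. At 25 to 34 nt it was found in 11.6%, 8.70%, 10.1% and 12.2%. The fall of shared 5′ borders over all pairs was thus small or absent within these width classes. Deep eIF4AIII/Y14 peaks of 35 to 49 nt ended more often exactly where the Btz/eIF4AIII peak ended.

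Many peaks have a depth that is a whole number (tolerance 1e-09) in reads per base, and extension differed with it. With whole-number depths in both lists (1406 pairs), Btz/eIF4AIII extended 1 nt 5′ and 5 nt 3′ at the median, with median widths of 42 nt in Btz/eIF4AIII and 25 nt in eIF4AIII/Y14. With a whole-number depth in eIF4AIII/Y14 alone (2852 pairs), Btz/eIF4AIII extended 10 nt 5′ and 13 nt 3′ at the median, with median widths of 63 nt in Btz/eIF4AIII and 25 nt in eIF4AIII/Y14. With a whole-number depth in Btz/eIF4AIII alone (1465 pairs), both median extensions were 0 nt and both widths 40 nt. In the 6919 pairs with neither, the extensions were 1 nt 5′ and 1 nt 3′, and the widths 60 nt in Btz/eIF4AIII and 42 nt in eIF4AIII/Y14.

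The pair that was deepest in both lists had identical borders. It lay on chromosome 4 at 964178 to 964203, plus strand, was 26 nt wide, and ranked 13 in Btz/eIF4AIII (9567 reads per base) and 1 in eIF4AIII/Y14 (33038 reads per base). The next, on 2R, plus strand, ran from 10511513 to 10511573 in Btz/eIF4AIII (rank 28) and from 10511513 to 10511578 in eIF4AIII/Y14 (rank 33), with the same 5′ border and a 3′ extension of -5 nt. The one after it, also on 2R, plus strand, ran from 13504260 to 13504428 in Btz/eIF4AIII (rank 1) and from 13504258 to 13504421 in eIF4AIII/Y14 (rank 51), with extensions of -2 nt 5′ and 7 nt 3′. At all these places, picked for a high rank in both lists, the borders of the lists lay within 7 nt of each other.

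The largest extensions came from broad Btz/eIF4AIII peaks over short eIF4AIII/Y14 peaks. The greatest 5′ extension was 386 nt, on 3L, minus strand, where the Btz/eIF4AIII peak covered 428 nt (6206491 to 6206918) and the eIF4AIII/Y14 peak 31 nt (6206502 to 6206532), with a 3′ extension of only 11 nt. On 3R, plus strand, a Btz/eIF4AIII peak of 407 nt (19624813 to 19625219) reached 373 nt further 5′ than an eIF4AIII/Y14 peak of 34 nt and ended at the same 3′ base. The third of these, again on 3L, minus strand, had 318 nt 5′ and 65 nt 3′. The greatest 3′ extension, 1991 nt, belonged to the widest Btz/eIF4AIII peak of the list, 2283 nt on 3R (23526369 to 23528651, plus strand; rank 86), over an eIF4AIII/Y14 peak of 20 nt. Next came 479 nt on 2L (22247160 to 22247703, minus strand) and 363 nt on 3L (13852080 to 13852535, plus strand). Of these 6 pairs, all but the one on 2L also met a Y14/eIF4AIII peak, against 28.8% of all pairs. Such wide peaks overlap another list more easily.

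Partners could sit at opposite ends of the depth range. Btz/eIF4AIII stood highest over eIF4AIII/Y14 on the unplaced sequence Uextra at 28134456 to 28134573, minus strand, with rank 246 in Btz/eIF4AIII (1847 reads per base) and rank 34773 in eIF4AIII/Y14 (3.11 reads per base). On 3L at 22868224 to 22868312, minus strand, Btz/eIF4AIII had rank 516 and eIF4AIII/Y14 rank 34684, with the same 3′ border and a 5′ extension of 33 nt. On 3R at 4386915 to 4386965, minus strand, the ranks were 705 in Btz/eIF4AIII and 34823 in eIF4AIII/Y14. The reverse was most marked on 2R, minus strand, where Btz/eIF4AIII (3212097 to 3212161; 2.85 reads per base) had rank 36129 and eIF4AIII/Y14 (3212082 to 3212146; 2942 reads per base) rank 94. It was followed by 3R 25697859 to 25697945, plus strand, with rank 36083 in Btz/eIF4AIII and 456 in eIF4AIII/Y14. On 2L at 336513 to 336546, plus strand, the ranks were 35724 in Btz/eIF4AIII and 136 in eIF4AIII/Y14. Both of these last pairs ended at the same 3′ base in the lists.

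Peaks without a partner were narrower and shallower than matched ones in each list. In Btz/eIF4AIII the 22606 unmatched peaks had a median width of 52 nt against 56 nt for matched peaks, and a median depth of 74 against 140 reads per base. In eIF4AIII/Y14 the 20336 unmatched peaks had a median width of 28 nt against 36 nt, and a median depth of 42 against 72 reads per base. A whole-number depth was found in 53.0% of unmatched and 21.5% of matched Btz/eIF4AIII peaks, and in 67.1% of unmatched and 34.1% of matched eIF4AIII/Y14 peaks. Y14/eIF4AIII overlapped 12.3% (11.9 to 12.7) of unmatched and 30.8% (30.0 to 31.6) of matched Btz/eIF4AIII peaks, against 19.3% of that whole list. It overlapped 8.70% (8.32 to 9.10) of unmatched and 27.9% (27.1 to 28.6) of matched eIF4AIII/Y14 peaks, against 16.7% of that whole list.

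Width related to matching in a different way in each list. In eIF4AIII/Y14 the matched share was 52.2% under 15 nt, 24.8% at 15 to 24 nt, 34.6% at 25 to 34 nt, 47.5% at 35 to 49 nt, 67.1% at 50 to 74 nt and 83.6% at 100 nt or more. In Btz/eIF4AIII it was 23.5% under 15 nt, 44.9% at 25 to 34 nt, 32.1% at 50 to 74 nt and 60.9% at 100 nt or more. The narrowest eIF4AIII/Y14 peaks, which share their 5′ border with Btz/eIF4AIII so often, were thus matched more often than the next width class, whereas Btz/eIF4AIII peaks under 15 nt were matched less often than those of 15 to 24 nt (27.2%). A wider peak overlaps more easily by 1 bp, which bears on both series. With depth, the matched share was 30.6%, 35.7%, 39.2% and 46.1% over the classes of Btz/eIF4AIII and 32.5%, 37.1%, 40.6% and 57.0% over those of eIF4AIII/Y14, from shallowest to deepest.

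Matching varied among the chromosomes. Among the main arms it was highest on the small, largely heterochromatic chromosome 4, where 311 of 595 Btz/eIF4AIII peaks (52.3%; 48.2 to 56.4) and 322 of 618 eIF4AIII/Y14 peaks (52.1%; 48.1 to 56.1) had a partner. It was lowest on the X, with 33.4% (32.2 to 34.7) of 5411 Btz/eIF4AIII peaks and 35.8% (34.5 to 37.1) of 5299 eIF4AIII/Y14 peaks. The 4 large autosomal arms lay between, at 36.5% to 40.3% in Btz/eIF4AIII and 41.7% to 43.6% in eIF4AIII/Y14. On Uextra 24.5% (19.2 to 30.4) of the Btz/eIF4AIII peaks and 48.8% (39.9 to 57.8) of the eIF4AIII/Y14 peaks were matched. Extension was alike on 2L, 2R, 3L, 3R and X, with medians of 1 to 3 nt 5′ and 3 to 4 nt 3′. On chromosome 4 it was smaller, 0 nt 5′ and 1 nt 3′ over 278 pairs, and the pairs there had median widths of 49 nt in Btz/eIF4AIII and 40 nt in eIF4AIII/Y14. Their median depth percentiles were 48.7 in Btz/eIF4AIII and 78.8 in eIF4AIII/Y14, against 54.9 and 60.3 over all pairs. Whether depth goes with the smaller extension and higher matching on chromosome 4 was not tested.

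The share of unmatched peaks with the other list close by depended on the distance and depth asked for. Within 500 nt on the same strand there was an eIF4AIII/Y14 peak for 14981 unmatched Btz/eIF4AIII peaks (66.3%; 65.6 to 66.9) and a Btz/eIF4AIII peak for 12752 unmatched eIF4AIII/Y14 peaks (62.7%; 62.0 to 63.4). Median distances to the nearest peak of the other list were 243 nt in Btz/eIF4AIII and 269 nt in eIF4AIII/Y14. Within 200 nt the shares were 45.3% of the unmatched Btz/eIF4AIII peaks and 42.9% of the unmatched eIF4AIII/Y14 peaks. With lists limited to peaks above their median depth, 53.6% in Btz/eIF4AIII and 47.1% in eIF4AIII/Y14 had the other list within 500 nt. Within 5000 nt the shares were 91.7% of the unmatched Btz/eIF4AIII peaks and 89.1% of the unmatched eIF4AIII/Y14 peaks.

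The distances of unmatched Btz/eIF4AIII peaks had a sharp maximum on one side. An eIF4AIII/Y14 peak lay 50 to 75 nt upstream of 1810 of them (8.01%; 7.66 to 8.37), which is 69.6 per nt, and 50 to 75 nt downstream of 942 (4.17%; 3.91 to 4.44), or 36.2 per nt. At 25 to 49 nt the upstream count was 22.6 per nt, at 76 to 99 nt 45.0 per nt and from 100 nt to under 200 nt 25.0 per nt. In bins of 5 nt it was 25.2 per nt in the bin at -52 nt and 73.4 per nt in the bin at -77 nt. The maximum thus ran past 75 nt and did not fill the lower end of the 50 to 75 nt window. Unmatched eIF4AIII/Y14 peaks had a Btz/eIF4AIII peak 50 to 75 nt upstream in 946 cases (4.65%; 4.37 to 4.95), or 36.4 per nt, and downstream in 681 (3.35%; 3.11 to 3.61), or 26.2 per nt. Of the 1810 unmatched Btz/eIF4AIII peaks, 1447 (79.9%; 78.0 to 81.8) had as their upstream neighbour an eIF4AIII/Y14 peak that itself had a Btz/eIF4AIII partner, against 438 of 942 (46.5%; 43.3 to 49.7) on the downstream side. These peaks stood at an ordinary depth for their list (median percentile 53.3) and were 37 nt wide at the median.

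**Figure D5:**
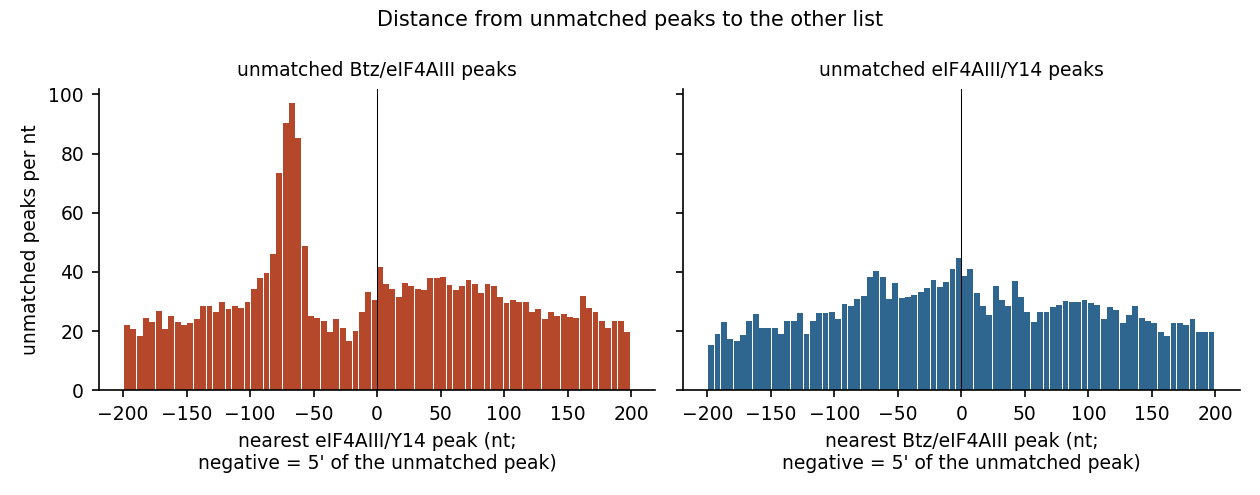
Unmatched peaks per nt, in bins of 5 nt, by the distance to the nearest peak of the other list on each side (negative, 5′ of the unmatched peak), for Btz/eIF4AIII on the left and eIF4AIII/Y14 on the right; each peak is counted once for either side. The left panel has a single sharp maximum, 97 peaks per nt in the bin at -67 nt, which the right panel lacks.

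Pairs were also followed to their neighbours, which can count the same unmatched peaks again and is no separate readout. A Btz/eIF4AIII peak that belonged to a pair had another Btz/eIF4AIII peak 50 to 75 nt downstream in 3421 cases and 50 to 75 nt upstream in 2085. The downstream neighbour overlapped an eIF4AIII/Y14 peak in 46.8% (45.1 to 48.5) and the upstream neighbour in 74.3% (72.4 to 76.2). For eIF4AIII/Y14 peaks of pairs, such neighbours numbered 1725 downstream and 1581 upstream, and they overlapped a Btz/eIF4AIII peak in 74.3% (72.1 to 76.3) and 77.4% (75.2 to 79.4). Median neighbour widths were 36 nt downstream and 55 nt upstream in Btz/eIF4AIII, and 19 nt and 39 nt in eIF4AIII/Y14. Over the whole lists 37.9% of Btz/eIF4AIII and 41.8% of eIF4AIII/Y14 peaks overlapped the other list, so all these neighbours were matched more often than that. A narrower peak overlaps less easily by 1 bp, which bears on these shares. In the whole Btz/eIF4AIII list, however, the matched share was 37.4% at 35 to 49 nt and 32.1% at 50 to 74 nt. Across a gap of this length, then, a Btz/eIF4AIII neighbour lacked an eIF4AIII/Y14 peak more often downstream than upstream, though less often than peaks of its whole list.

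Among all unmatched peaks, Y14/eIF4AIII met 12.3% in Btz/eIF4AIII and 8.70% in eIF4AIII/Y14, and no share is given for deep ones. The deepest unmatched peaks, 3 per list and picked by depth, all met a Y14/eIF4AIII peak. In Btz/eIF4AIII they lay on Uextra at 15240854 to 15240932, plus strand (rank 14; 9454 reads per base), on 3R at 1291383 to 1291453, minus strand (rank 16; 9214 reads per base), and on 3R at 19888382 to 19888403, plus strand (rank 23; 6306 reads per base). The first had no eIF4AIII/Y14 peak within 175717 nt, whereas the others had one 70 nt and 75 nt upstream. In eIF4AIII/Y14 they lay on 2L at 5148843 to 5148880, plus strand (rank 28; 5031 reads per base), on 2R at 3210527 to 3210582, minus strand (rank 35; 4589 reads per base), and on 2R at 19942335 to 19942404, minus strand (rank 46; 4121 reads per base). Their nearest Btz/eIF4AIII peaks lay 105, 249 and 254 nt upstream.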

How the data were processed

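For each library the authors deposited a peak list with strand and a score, a signal value that behaves as mean read depth per base. The words clipped and merged appear in track names, per the file headers. The submitters' processing notes name Bowtie and SAMtools. Not given in the sources used here: peak caller, threshold, genome build and read totals. In the eIF4AIII/Y14 list the track name mentions Y14 alone; samples were grouped by label.

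Overlaps, one-to-one pairs, border differences by strand, gaps and distances were computed in Python 3.11.15 (pandas 2.3.3, NumPy 2.4.6, SciPy 1.17.1) and tested on simulated lists. Shares carry exact (Clopper-Pearson) intervals and medians order-statistic intervals, both 95%. The 4 depth classes were formed on each full list. Places named are the 3 pairs best ranked in both lists, the 3 largest extensions on each side, the 3 largest rank differences each way, the 3 deepest unmatched peaks per list, and the arms of highest and lowest matched share. The comparison, measures and alternatives were chosen with earlier results of these data known.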

Additional observations from a re-analysis of the deposited data

How the results depend on the processing

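No paired analysis was possible because each purification had 1 library and no shared replicate numbers. No median changed sign under any setting tried, and shares and counts cannot do so. The side with the greater extension did depend on the pairs kept. It was more often the 3′ side over all pairs (49.2% against 47.0%). Over pairs with no border shared it was more often the 5′ side (51.7% against 46.8%). Of the main values recomputed, 83 stayed close and the 54 given here moved further. For the 54 the cause was not tested. The 83 include every main value from the shorter joining distance, which joined no peaks and so could not move any value. Those values say nothing about stability.

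Keeping peaks above the median depth of their list gave 4463 pairs, overlap of 25.95% of Btz/eIF4AIII and 28.1% of eIF4AIII/Y14 peaks, a median 5′ extension of 9 nt, a 5′ minus 3′ difference of 4 nt, eIF4AIII/Y14 inside Btz/eIF4AIII in 66.3%, the same 5′ border in 15.3% and the same 3′ border in 29.55%. Beside shared gaps the extensions were then 13 nt 5′ and 19 nt 3′. Of unmatched peaks 53.6% (Btz/eIF4AIII) and 47.1% (eIF4AIII/Y14) had the other list within 500 nt. At 50 to 75 nt it lay upstream of 7.30% and downstream of 2.80% for Btz/eIF4AIII, and upstream of 2.76% and downstream of 2.34% for eIF4AIII/Y14.

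Without peaks under 15 nt the overlap was 36.6% and 40.5%, the 5′ extension 5 nt, the difference 1 nt, the inside share 55.6%, the same 5′ border 11.7%, the same 3′ border 22.7%, and eIF4AIII/Y14 had Btz/eIF4AIII 50 to 75 nt upstream in 4.10%. The 3′ extension downstream of shared gaps was then 4 nt, against 12 nt with those peaks. Asking for an overlap of 50% of the shorter peak gave 35.8% and 39.4%, an inside share of 61.0%, shared borders in 20.0% (5′) and 22.95% (3′), and 67.4% and 64.2% of unmatched peaks within 500 nt. Pairs by mutual best match had a 5′ extension of 3 nt and the same 5′ border in 18.25%. Pairs met by Y14/eIF4AIII had 3 nt, an inside share of 60.7% and the same 3′ border in 24.5%.

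Of the settings added after the data were seen, pairs with no border shared had extensions of 10 nt 5′ and 7 nt 3′, a difference of 2 nt and an inside share of 48.3%. Pairs with no whole-number depth had 1 nt 3′, the same 5′ border in 16.7% and the same 3′ border in 28.85%. Joining peaks up to 40 nt apart gave 38.5% overlap for Btz/eIF4AIII, with 65.1% and 61.6% of unmatched peaks within 500 nt. Joining up to 10 nt joined nothing, because no neighbouring peaks lay that close, so its unchanged values tested nothing. Calling near 200 nt gave 45.3% and 42.9%, and 1000 nt 78.2% and 73.9%. Ranked by depth times width, the 5′ extension was 18 nt in the deepest Btz/eIF4AIII class and 0 nt in the shallowest eIF4AIII/Y14 class, where the 3′ extension was 11 nt.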
